A study of Mus musculus with 12 samples.

Results

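The early growth response (EGR) and Krüppel-like factor (KLF) genes were followed across resting, IL-4-treated and LPS-activated mouse macrophages. The set held 10 genes, Egr1, Egr2, Egr3, Klf2, Klf3, Klf4, Klf6, Klf7, Klf10 and Klf13, taken by their symbols from the 23361 gene symbols of the expression tables. Messenger RNA was sequenced from bone marrow-derived macrophages (BMDMs) of wild-type mice on the C57BL/6 background, aged 8 to 12 weeks, after 6 days of differentiation in L929 cell supernatant as the source of MCSF. Control cells received no stimulus, the IL-4 group had IL-4 (20 ng/ml) over 24 h, the LPS group had LPS (100 ng/ml) over 3 h, and the IL-4+LPS group had the first treatment and then the second, which is also called both treatments here. The LPS dose is that of the labels, whereas the methods of the study give it as a molar concentration. Each of the 4 groups held 3 samples, numbered in the labels, which gave 12 samples. IL-4 is a cytokine that signals through STAT6 and polarizes macrophages toward the alternative state, and LPS is a bacterial membrane component that triggers the inflammatory program through TLR4. The comparisons ask how each gene responded to IL-4, to LPS, and to LPS after IL-4 pretreatment.

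EGR and KLF proteins bind GC-rich DNA through zinc fingers. EGR genes are immediate-early genes, which growth factors, cytokines and stress switch on within minutes through serum response factor (SRF) and its partners, and the NAB proteins bind EGR proteins and limit their activity. KLF proteins share a DNA-binding domain that recognises GC boxes and CACCC boxes, and differ in the rest of the protein. Klf2, Klf4, Klf6 and Klf7 act mainly as activators, Klf3 represses through the corepressor CtBP, and Klf10 and Klf13 recruit the corepressor Sin3A. In macrophages, Klf2 and Klf4 are known to restrain inflammatory activation, Klf4 cooperates with STAT6 in alternative polarization, and Klf6 is known to promote inflammatory gene expression.

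Expression was given as FPKM, fragments scaled to transcript length and to the mapped fragments of the sample, which allows levels of different genes to be set side by side. Depth was not stated and was read only in relative terms, from 0.991 to 3.30 times that of control replicate 1. Pearson's r of log2(FPKM + 1) between replicates of a group ran from 0.954 to 0.962 for pairs with replicate 1 and from 0.973 to 0.983 for replicates 2 and 3. All 7 macrophage markers in the tables were expressed, with summed levels of 19233 to 20599 FPKM in control, 7571 to 7785 with IL-4, 15468 to 16698 with LPS and 6567 to 6954 with both treatments. Lyz2 made up most of these sums, with means of 16116 FPKM in control, 4873 with IL-4, 12881 with LPS and 4298 with both treatments. The study reports Lyz2 as a gene that IL-4 represses. The summed markers of T and NK, B, erythroid, dendritic, stromal and mast cells stayed under 6 FPKM in each sample. The 7 neutrophil and granulocyte precursor markers, led by S100a8 and S100a9, summed to 366 to 951 FPKM in control, 232 to 443 with IL-4, 556 to 1150 with LPS and 460 to 930 with both treatments, and replicate 1 had the lowest sum in each group. In bulk RNA, fewer cells of a type and less RNA per cell cannot be told apart. The study describes the replicates of this RNA-seq as separate animals from a pair of independent experiments, and the labels tie no sample to an animal or an experiment, so experiments could not be compared.

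The genes lie on 10 chromosomes (mm10). Egr2 occupied chr10:67537869-67542188 on the plus strand, Klf4 chr4:55527137-55532475 on the minus strand, Klf6 chr13:5861489-5870393 on the plus strand and Klf7 chr1:64035671-64121389 on the minus strand. The others were Egr3 at chr14:70077445-70080157, Klf2 at chr8:72319062-72321654, Klf3 at chr5:64803523-64830129, Klf10 at chr15:38294413-38300707 and Klf13 at chr7:63886351-63938915. All 10 are protein coding. Exons of Klf7 overlap the antisense genes Gm13748 and Gm26649, and 40.8% of the 50-base words of its longest transcript also occur in Gm26649. Exons of Klf3 overlap the antisense gene Gm20033, and 6.92% of its words are shared with other transcripts, whereas at most 0.268% are shared for the other 8 genes. No source used here says that the counting used strand, so reads of Klf7 or Klf3 and of these antisense partners cannot be told apart.

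Promoter sequence from RefSeq (GRCm38.p6, 250 bases before to 50 bases after the start) was present for 7 of the 10 genes. Egr1, Egr3 and Klf10 had none. Those of Egr2 and Klf4 are shown because both genes rose with IL-4 and were low after LPS, and those of Klf6 and Klf7 because both rose with LPS. Capitals mark matches on either strand, and overlapping matches run together. The motifs were the EGR site, spelled GCGNGGGCG, the GC box, spelled GGGCGG, the 5 letters that name the CACCC box, and the CArG box, which is the site bound by SRF. The windows are chr10:67537619-67537918 on the plus strand for Egr2, chr4:55532426-55532725 on the minus strand for Klf4, chr13:5861239-5861538 on the plus strand for Klf6 and chr1:64121340-64121639 on the minus strand for Klf7.
Egr2: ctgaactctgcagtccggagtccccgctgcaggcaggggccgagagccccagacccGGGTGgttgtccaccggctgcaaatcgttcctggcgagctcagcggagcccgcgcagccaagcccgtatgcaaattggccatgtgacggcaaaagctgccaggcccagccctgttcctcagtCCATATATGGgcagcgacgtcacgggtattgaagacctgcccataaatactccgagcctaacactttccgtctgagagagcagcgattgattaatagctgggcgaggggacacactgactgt
Klf4: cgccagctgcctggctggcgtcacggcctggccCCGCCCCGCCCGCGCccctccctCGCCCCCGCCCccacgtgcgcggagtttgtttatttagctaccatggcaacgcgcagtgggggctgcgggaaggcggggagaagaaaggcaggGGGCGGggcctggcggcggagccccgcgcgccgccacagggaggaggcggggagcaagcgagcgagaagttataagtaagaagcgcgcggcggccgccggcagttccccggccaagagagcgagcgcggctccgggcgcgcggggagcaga
Klf6: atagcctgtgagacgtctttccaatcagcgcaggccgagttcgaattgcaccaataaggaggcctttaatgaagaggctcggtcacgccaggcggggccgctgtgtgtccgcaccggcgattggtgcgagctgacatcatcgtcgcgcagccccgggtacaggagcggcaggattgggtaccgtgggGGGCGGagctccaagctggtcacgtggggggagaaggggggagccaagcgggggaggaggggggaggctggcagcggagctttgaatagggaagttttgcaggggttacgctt
Klf7: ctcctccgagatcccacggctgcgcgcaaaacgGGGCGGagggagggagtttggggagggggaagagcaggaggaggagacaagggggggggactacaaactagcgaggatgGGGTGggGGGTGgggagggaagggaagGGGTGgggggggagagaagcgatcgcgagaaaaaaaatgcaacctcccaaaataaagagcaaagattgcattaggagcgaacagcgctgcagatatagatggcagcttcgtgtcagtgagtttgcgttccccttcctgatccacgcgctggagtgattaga

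The Egr2 promoter held a CArG box starting 72 bases before the start site. It was the only one of the 7 promoters with that match, which 1.573% of all 27025 promoters of this length hold. Egr2 was also the only EGR gene among the 7, so the promoters of Egr1 and Egr3 were not examined. EGR sites were found in 3 of the 7, namely Klf2, Klf3 and Klf4, against 5.554% of all promoters. The Klf4 promoter carried 2 of them, each overlapping a GC box. GC boxes were found in 6 of the 7 promoters, all but that of Egr2, against 35.91% of all promoters, and CACCC boxes in 5 of the 7, against 56.74%. The 7 promoters had a GC content of 58.3% to 76.7%, and the median of all promoters was 52.7%. The STAT6 site (TTCNNNNGAA), held by 6.986% of all promoters, and the NF-kB site, held by 4.348%, had no match in any of the 7 windows, which says only that these letters are not within these 300 bases.

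Of the 10 genes, 9 reached 1 FPKM in at least 1 sample and entered the test, which was limma on log2(FPKM + 1) over 11191 rows with Benjamini-Hochberg adjustment and a threshold of 0.05. Differences are given on that log2 scale, which understates the change of genes with low levels, and folds are ratios of mean FPKM. Egr3, the member not tested, stayed between 0 and 0.154 FPKM in all 12 samples.

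With IL-4 alone, Klf4, Egr2, Klf2 and Klf10 rose, Klf6 fell, and Egr1, Klf3, Klf7 and Klf13 did not pass the threshold. These were 4 higher and 1 lower of 9, while 16.0% of all rows were called higher and 21.0% lower in the same comparison. The median difference of the 9 genes was 0.30, beside -0.05 over all rows. Of the 7 macrophage markers, 6 were also lower with IL-4 (median -1.14; also 6 with median scaling), and 5 were lower and 1 higher in IL-4+LPS than in LPS. Their part in the results was not tested.

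LPS-treated samples were taken at 3 h only, so earlier changes were not seen for any gene. With LPS alone, Klf7, Klf3 and Klf6 rose, and Egr2, Klf10, Egr1, Klf13 and Klf4 fell. These were 3 higher and 5 lower of 9, beside 16.9% of all rows called higher and 57.7% called lower. The median difference was -0.30 for the 9 genes and -0.44 for all rows. Scaling the samples to a common median moved the median of all rows up by 0.30 in this comparison and by 0.28 in IL-4+LPS minus IL-4. The split over all rows in LPS minus control then went from 1887 higher and 6462 lower to 2966 higher and 4454 lower, and in IL-4+LPS minus IL-4 from 1682 and 6474 to 2629 and 4057. Klf4 and Klf13 lost their calls for LPS alone under that scaling, which left 3 higher and 3 lower, with a difference of -0.10 for Klf4 (limma adjusted p = 0.380) and of -0.02 for Klf13 (limma adjusted p = 0.875).

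In cells pretreated with IL-4, LPS moved the same 8 genes past the threshold in the same directions, with 3 higher and 5 lower of 9, beside 15.0% and 57.9% of all rows. The medians were -0.59 for the 9 genes and -0.41 for all rows. Between IL-4+LPS and LPS, Klf10, Klf2 and Klf4 were higher after pretreatment and Klf13, Klf3 and Klf6 lower, which was 3 and 3 of 9 beside 15.0% and 15.8% of all rows. Their median was -0.05, and that of all rows was -0.03. Comparisons that share a group share its samples and are not independent of each other.

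**Figure D1:**
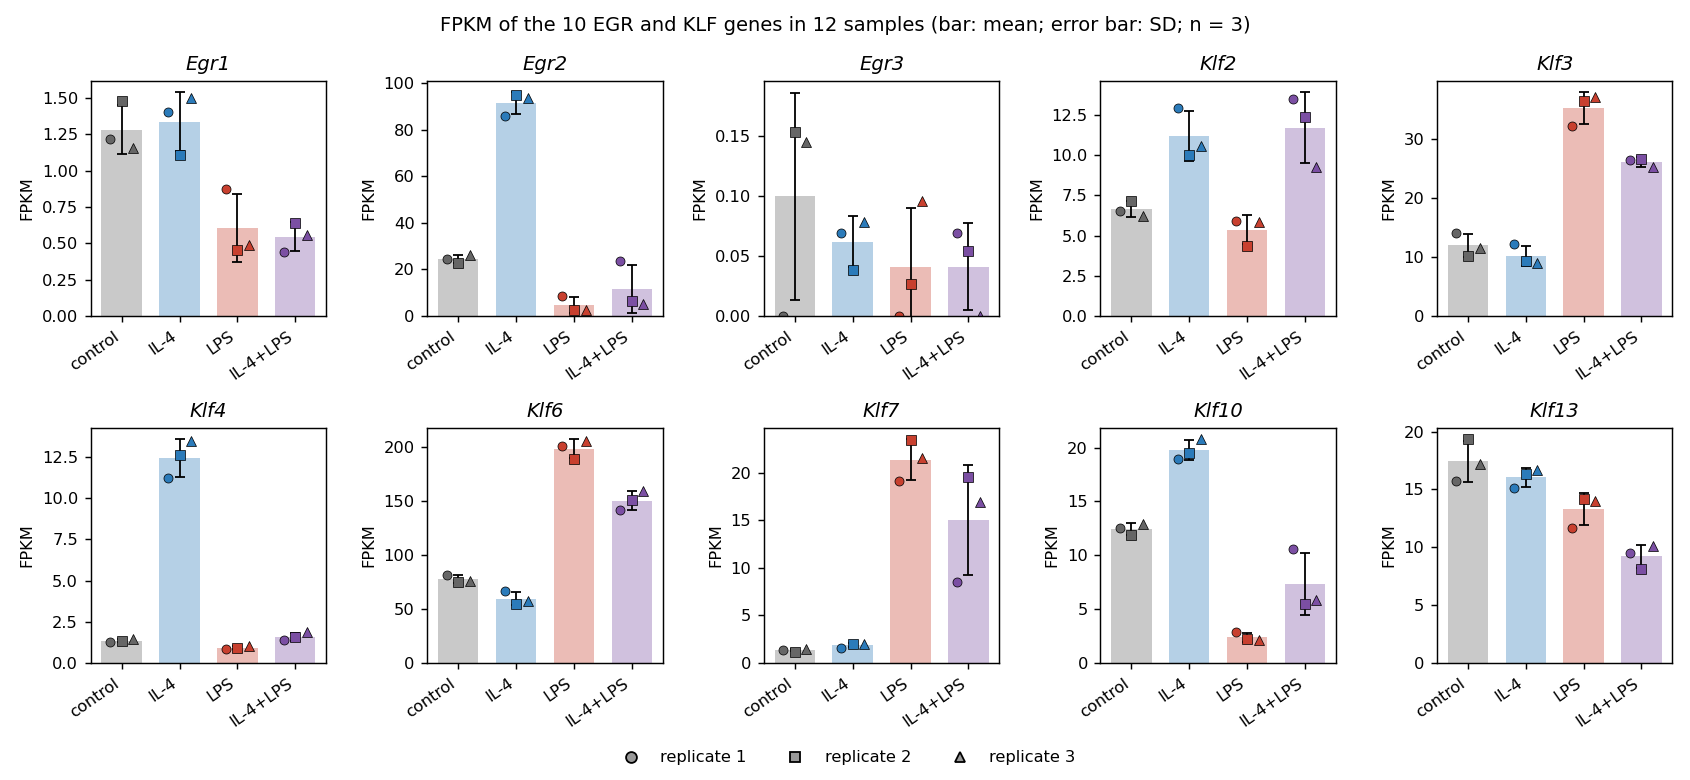
FPKM of each of the 10 genes in the 4 groups, with a linear axis from 0 for each gene, bars for the mean, error bars for the SD (n = 3) and 1 marker shape per replicate number. Klf4 and Egr2 peak in IL-4, Klf6, Klf3 and Klf7 peak in LPS, and replicate 1 stands above the others for Egr2 and Klf10 and below them for Klf7 in IL-4+LPS.

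Egr2 encodes the EGR factor known for its part in Schwann cell myelination and in the restraint of T cell responses. Its level was 24.6, 22.5 and 26.2 FPKM in control replicates 1 to 3, 86.0, 94.7 and 93.5 in IL-4, 8.75, 2.64 and 2.57 in LPS, and 23.4, 6.21 and 5.33 in IL-4+LPS. The IL-4 samples lay above all others, the LPS samples lay below control without overlap, and IL-4+LPS overlapped LPS, with replicate 1 the highest of both groups. IL-4 raised Egr2 3.74-fold, a difference of 1.86 ± 0.49 (SE; limma adjusted p = 0.0134). LPS left 19.0% of the control level (difference -2.34 ± 0.49, limma adjusted p = 0.00132), and after IL-4 it left 12.7% of the IL-4 level (difference -3.16 ± 0.49, limma adjusted p = 0.000187). Among the tested rows Egr2 stood at percentile 92.7 of the levels in IL-4 and at percentile 40.7 in LPS.

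The Egr2 level in IL-4+LPS was 2.50 times that in LPS, a difference of 1.04 with a 95% interval from -0.04 to 2.13 that did not pass the threshold (limma adjusted p = 0.138). Whether the difference passed depended on replicate 1, the highest sample of each group. Under each replicate number IL-4+LPS was above LPS, at 23.4 against 8.75, 6.21 against 2.64 and 5.33 against 2.57 FPKM. Without LPS replicate 1 the difference was 1.52 (limma adjusted p = 0.0344), without IL-4+LPS replicate 1 it was 0.43 (limma adjusted p = 0.394), and with replicates 2 and 3 alone it was 0.91 (limma adjusted p = 0.000247). Granulocyte markers were also lowest in the replicate 1 samples, at 556 FPKM in LPS and 460 FPKM in IL-4+LPS, and their part in the result was not tested.

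Egr1, the prototype immediate-early EGR gene, stayed near the 1 FPKM minimum. It lies at chr18:34861207-34864956 on the plus strand. It read 1.22, 1.48 and 1.15 FPKM in control, 1.40, 1.11 and 1.498 with IL-4, 0.871, 0.456 and 0.486 with LPS and 0.439, 0.641 and 0.558 with both treatments. Control and IL-4 overlapped, the LPS-treated groups overlapped each other, and every LPS-treated sample was below every sample without LPS. The difference was -0.52 ± 0.12 for LPS minus control (SE; limma adjusted p = 0.00235) and -0.59 ± 0.12 after IL-4 (limma adjusted p = 0.00102), and both lost the call under quantile normalization. The IL-4 effect was 0.03, with a 95% interval from -0.23 to 0.30.

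Klf4, the partner of STAT6 in alternative polarization, rose the most with IL-4 among the 9 genes tested. It read 1.29, 1.36 and 1.45 FPKM in control, 11.2, 12.6 and 13.5 with IL-4, 0.851, 0.887 and 1.04 with LPS and 1.39, 1.55 and 1.87 with both treatments. The 3 IL-4 samples stood far above the other 9, and LPS lay below control without overlap. IL-4 raised Klf4 9.11-fold, a difference of 2.50 ± 0.09 (SE; limma adjusted p = 4.00e-08). LPS after IL-4 brought it down to 12.9% of the IL-4 level, a difference of -2.37 ± 0.09 (limma adjusted p = 1.22e-08). The level in IL-4+LPS differed from control by 0.13, with a 95% interval from -0.07 to 0.34 (limma adjusted p = 0.214).

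Without IL-4, LPS lowered Klf4 by a much smaller step, from 1.36 to 0.927 FPKM on average (difference -0.30 ± 0.09, limma adjusted p = 0.0144), a call that was lost with median scaling and turned to 0.25 with quantile normalization. It was also lost without control replicate 3 (-0.27, limma adjusted p = 0.0506). Klf4 was still higher in IL-4+LPS than in LPS, 1.73-fold or 0.43 ± 0.09 (limma adjusted p = 0.00562).

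Klf2, a brake on myeloid activation, was higher with IL-4 both before and after LPS. It read 6.55, 7.18 and 6.21 FPKM in control, 12.98, 10.01 and 10.6 with IL-4, 5.90, 4.35 and 5.87 with LPS and 13.5, 12.4 and 9.25 with both treatments. All 6 samples with IL-4 lay above all 6 samples without it. The difference was 0.67 ± 0.15 for IL-4 minus control (SE; limma adjusted p = 0.00588) and 0.99 ± 0.15 for IL-4+LPS minus LPS (limma adjusted p = 0.000622), or 1.68-fold and 2.18-fold. The LPS effect was -0.27 without IL-4, with a 95% interval from -0.60 to 0.06 (limma adjusted p = 0.125), and 0.05 after IL-4, with an interval from -0.28 to 0.39 (limma adjusted p = 0.765). Under median scaling the first turned to 0.05 and the second rose to 0.39 and passed the threshold (limma adjusted p = 0.0456).

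Klf6 was the most abundant of the 10 genes in control, LPS and IL-4+LPS, and stood below Egr2 in IL-4. It read 81.6, 74.6 and 76.0 FPKM in control, 66.4, 54.5 and 57.6 with IL-4, 201, 188 and 205 with LPS and 142, 150 and 159 with both treatments. The 4 groups did not overlap, in the order IL-4, control, IL-4+LPS and LPS. LPS raised Klf6 2.56-fold without IL-4 and 2.53-fold after it, with differences of 1.35 ± 0.08 (SE; limma adjusted p = 1.82e-07) and 1.33 ± 0.08 (limma adjusted p = 2.36e-07). IL-4 lowered it both before and after LPS, to 0.769 and 0.758 of the level without IL-4, with differences of -0.38 (limma adjusted p = 0.00466) and -0.40 (limma adjusted p = 0.00404).

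Klf7, an activator best known from neurons, had the largest LPS response of the 9 genes in cells without IL-4. It read 1.39, 1.21 and 1.42 FPKM in control, 1.63, 2.02 and 2.02 with IL-4, 19.1, 23.4 and 21.5 with LPS and 8.52, 19.6 and 16.9 with both treatments. Every LPS-treated sample lay above every sample without LPS, and IL-4+LPS replicate 2 fell inside the range of LPS. The IL-4 samples lay above control without overlap, but the difference of 0.30 passed the threshold only with IL-4+LPS replicate 1 left out, with replicates 2 and 3 alone or in a fit of the groups compared. The rise was 15.9-fold without IL-4 (3.25 ± 0.23 SE, limma adjusted p = 5.32e-07) and 7.93-fold after IL-4 (2.40 ± 0.23, limma adjusted p = 5.69e-06).

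Klf7 in IL-4+LPS was 70.2% of its level in LPS, a difference of -0.55 with a 95% interval from -1.06 to -0.04 that missed the threshold (limma adjusted p = 0.0955). With the replicate number as a block, it passed (limma adjusted p = 0.0473). Same-numbered samples of these groups deviated together, but so did replicates 2 and 3 across numbers. Replicate 1 of IL-4+LPS carried most of the gap: without it the difference was -0.22 (limma adjusted p = 0.159), without IL-4+LPS replicate 2 it was -0.77 (limma adjusted p = 0.0297), and with replicates 2 and 3 alone it was -0.29 (limma adjusted p = 0.0351). The overlap with antisense Gm26649 applies to each of these Klf7 values.

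Among the repressor KLF genes, Klf3 rose with LPS and Klf10 and Klf13 fell. Klf3 read 14.1, 10.2 and 11.6 FPKM in control, 12.2, 9.35 and 9.03 with IL-4, 32.2, 36.4 and 37.2 with LPS and 26.5, 26.7 and 25.2 with both treatments. Control and IL-4 overlapped, and IL-4+LPS lay between them and LPS without overlap. The rise was 2.94-fold without IL-4 (1.49 ± 0.13 SE, limma adjusted p = 1.98e-06) and 2.57-fold after it (1.29 ± 0.13, limma adjusted p = 6.91e-06). Pretreatment left Klf3 lower after LPS, with a difference of -0.42 (limma adjusted p = 0.0304), a call lost under quantile normalization. It was also lost without LPS replicate 2 or 3 and without any 1 of the IL-4+LPS samples, with a limma adjusted p of 0.0510 to 0.0958, and with no filter on low levels (limma adjusted p = 0.0784). A per-gene Tukey test of the 4 groups did not pass either.

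Klf10, first described as a gene induced early by TGF-beta, read 12.55, 11.9 and 12.95 FPKM in control, 19.0, 19.5 and 20.8 with IL-4, 2.89, 2.21 and 2.13 with LPS and 10.6, 5.52 and 5.86 with both treatments. The 4 groups did not overlap, in the order LPS, IL-4+LPS, control and IL-4. LPS left 19.3% of the control level (-1.99 ± 0.19 SE, limma adjusted p = 3.93e-06) and 37.1% of the IL-4 level (-1.37 ± 0.19, limma adjusted p = 7.34e-05). Pretreated cells held 3.04 times as much Klf10 after LPS as cells without IL-4, a difference of 1.24 ± 0.19 (limma adjusted p = 0.000586). IL-4 alone raised it 1.58-fold (0.62 ± 0.19, limma adjusted p = 0.0241), a call lost without any 1 of the control samples and without IL-4 replicate 2 or 3, with a limma adjusted p of 0.0508 to 0.0748. It was also lost with no filter on low levels (limma adjusted p = 0.0667), and a per-gene Tukey test of the 4 groups did not pass either.

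Klf13, known as a regulator of the chemokine RANTES in T cells, read 15.8, 19.3 and 17.2 FPKM in control, 15.1, 16.3 and 16.7 with IL-4, 11.7, 14.2 and 14.0 with LPS and 9.49, 8.13 and 10.1 with both treatments. Control and IL-4 overlapped, and the IL-4+LPS samples were the lowest. The difference was -0.37 ± 0.10 for LPS minus control (SE; limma adjusted p = 0.00812), the call that both other scalings removed. After IL-4 it was -0.74 ± 0.10 (limma adjusted p = 9.07e-05), and IL-4+LPS minus LPS gave -0.48 ± 0.10 (limma adjusted p = 0.00557). IL-4 alone gave -0.11, with a 95% interval from -0.34 to 0.12.

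**Figure D2:**
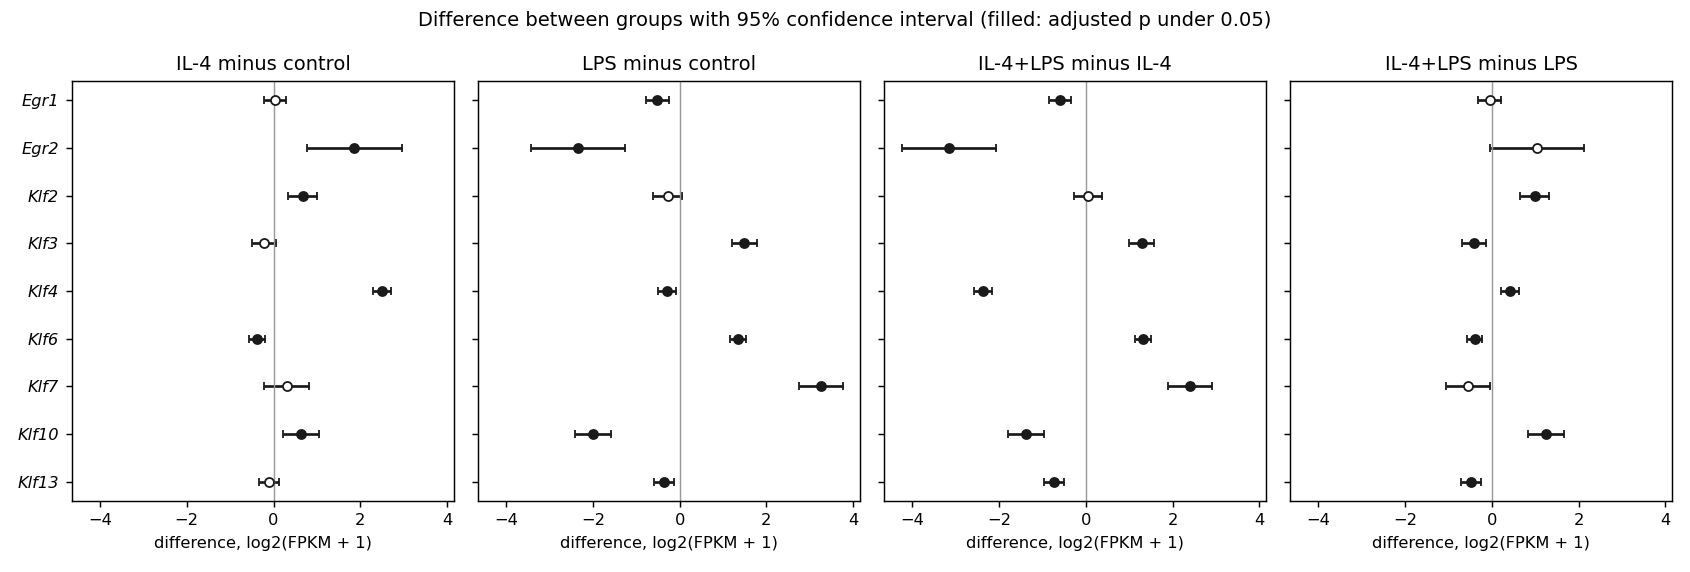
Difference on the log2(FPKM + 1) scale for the 9 tested genes in 4 comparisons, as points with 95% confidence intervals, filled where the limma adjusted p passed 0.05. IL-4 minus control has its longest shift at Klf4 (2.50) and LPS minus control at Klf7 (3.25), and the Klf4 and Klf13 points filled in LPS minus control lose their calls under median scaling.

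The interaction tested whether the LPS response differed after IL-4 pretreatment, as the LPS response with IL-4 minus that without. Klf4 alone of the 9 genes passed, with -2.07 ± 0.13 (SE; limma adjusted p = 1.82e-05), which was 0 higher and 1 lower of 9 beside 4.58% and 4.63% of all rows. In FPKM, the mean Klf4 level fell by 0.438 with LPS in cells without IL-4 and fell by 10.8 in pretreated cells. The median interaction was -0.20 for the 9 genes and 0.04 for all rows. With a pseudocount of 0.1 FPKM in place of 1, the Klf4 value was -2.37 (limma adjusted p = 0.000111).

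The other 8 genes did not pass in the interaction, and several intervals were wide. The interval ran from -2.36 to 0.72 for Egr2, from -1.58 to -0.13 for Klf7, from 0.04 to 1.21 for Klf10 and from -0.70 to -0.05 for Klf13, with limma adjusted p-values of 0.541, 0.136, 0.181 and 0.151. For Klf6 the interval was narrow, from -0.28 to 0.23. With replicates 2 and 3 alone, Egr2 (-1.01, limma adjusted p = 0.00203), Klf7 (-0.68, limma adjusted p = 0.0105) and Klf10 (0.42, limma adjusted p = 0.0195) also passed, while over all rows the calls went from 512 higher and 518 lower to 1459 and 1393.

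**Figure D3:**
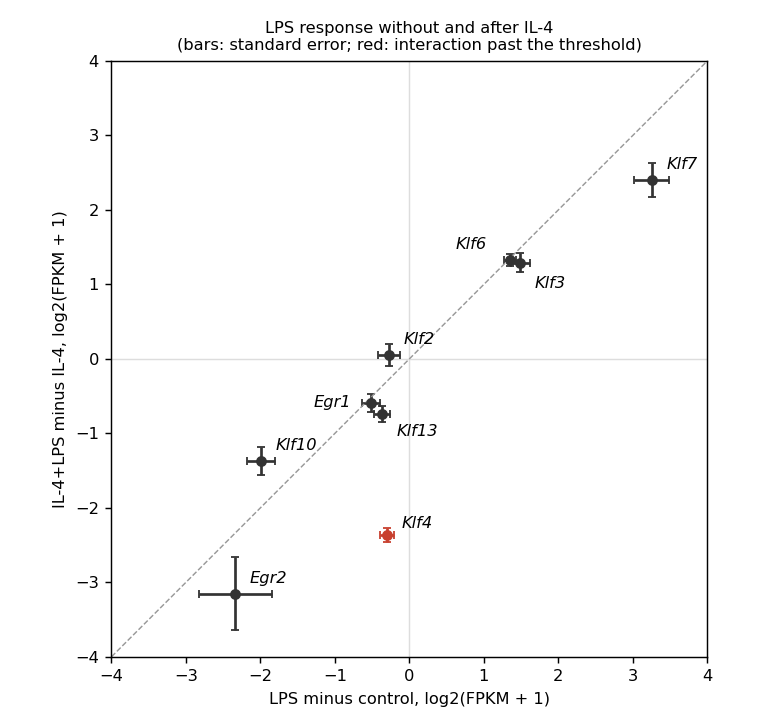
LPS response without IL-4 (horizontal, LPS minus control) against the LPS response after IL-4 (vertical, IL-4+LPS minus IL-4), both as differences in log2(FPKM + 1), with SE bars and a dashed line of equal response. Klf4, in red, lies 2.07 below the line and is the 1 gene whose interaction passed the threshold, while Klf6, Egr1 and Klf3 lie close to the line.

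The KLF family as a whole was read from the summed FPKM of the 17 KLF genes in the tables. The sum was 142 ± 4.7 FPKM in control, 160 ± 6.9 with IL-4, 287 ± 9.0 with LPS and 244 ± 9.8 with both treatments (SD, n = 3). Klf6 made up 54.5% of it in control, 37.1% with IL-4, 69.1% with LPS and 61.7% with both treatments. In IL-4 the Klf6 share was the lowest of the 4 groups, and those of Klf2, Klf4 and Klf10 were the highest. Klf9, which is also in the sum, averaged 2.85 FPKM in control and 19.4 with IL-4. Klf4 held 0.963% in control, 7.78% with IL-4, 0.323% with LPS and 0.656% with both treatments. Klf10 had 8.79%, 12.3%, 0.842% and 3.05% in the same order, and Klf7 had 0.946%, 1.18%, 7.45% and 6.10%. These shares are descriptions with no test.

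**Figure D4:**
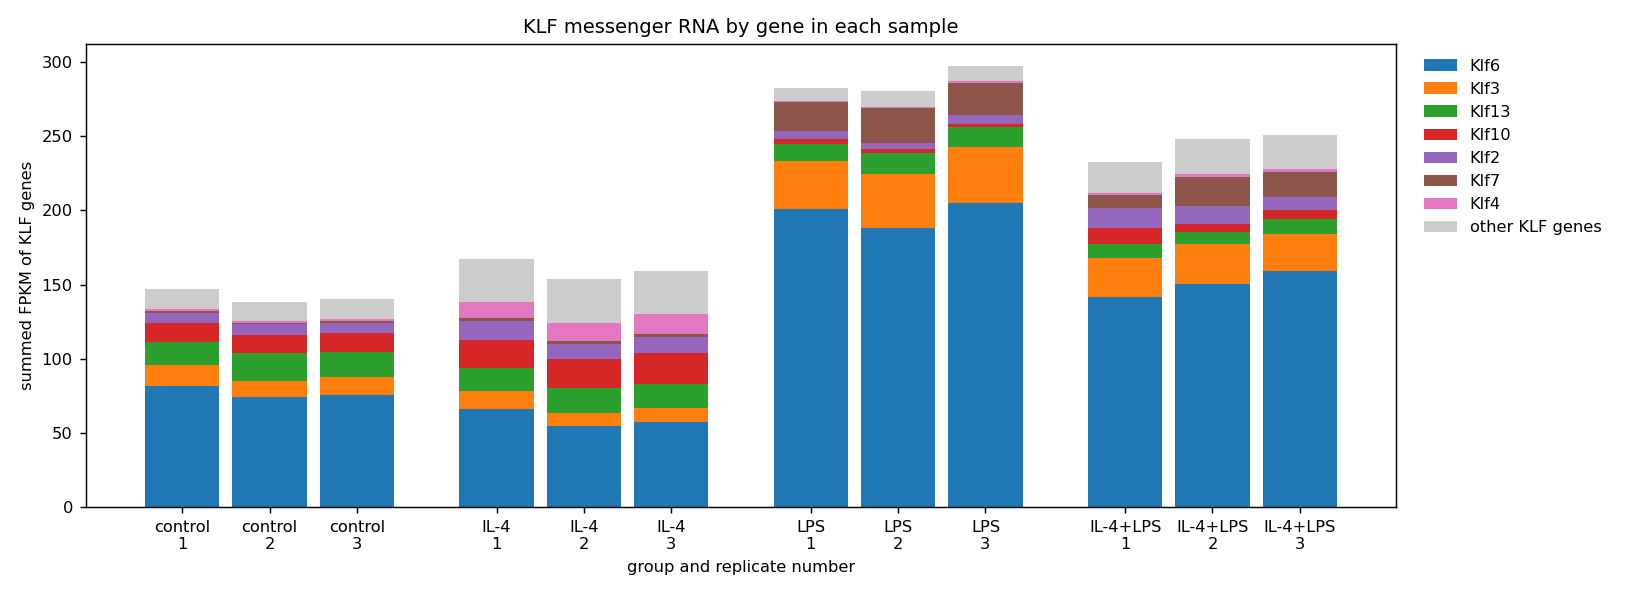
Summed FPKM of the 17 KLF genes in each of the 12 samples, stacked by gene, with the replicate number under each bar. The bars of LPS and IL-4+LPS are the tallest, with group means of 287 and 244 FPKM, and Klf6 is the largest layer in every sample.

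Ordered by mean level, the groups formed a few shapes. Klf3 and Klf6 ran IL-4, control, IL-4+LPS, LPS from low to high, and for Klf3 the lowest neighbours, IL-4 and control, did not pass the threshold (limma adjusted p = 0.216). Egr2 and Klf10 ran LPS, IL-4+LPS, control, IL-4, and for Egr2 the lowest neighbours did not pass (limma adjusted p = 0.138). Klf4 ran LPS, control, IL-4+LPS, IL-4, with no difference passing between control and IL-4+LPS. Klf13 ran IL-4+LPS, LPS, IL-4, control, and its upper neighbours did not pass (limma adjusted p = 0.457). Klf7 ran control, IL-4, IL-4+LPS, LPS and Klf2 ran LPS, control, IL-4, IL-4+LPS, each with 1 step that passed, between IL-4 and IL-4+LPS for Klf7 and between control and IL-4 for Klf2. Egr1 ran IL-4+LPS, LPS, control, IL-4, and only the step from LPS to control passed.

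For each tested member, the 3 expressed rows most like it were found by Pearson's r of log2(FPKM + 1) over the 12 samples, among 10727 rows. The samples share their groups and libraries, so these r values are descriptions. Klf6 was most like Irak2 (r = 0.997), a kinase of the TLR pathway, Birc3 (0.995), an inhibitor of apoptosis, and Mgat4a (0.994). Klf4 was most like Plk3 (0.992), a stress-responsive kinase that went from 2.08 FPKM in control to 14.4 in IL-4 and 2.53 in IL-4+LPS, then Set (0.987) and Tex9 (0.987). Klf10 was most like Dnmt3a (0.992), a de novo DNA methyltransferase, Myo1f (0.991) and Mink1 (0.991).

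Klf3 was most like Azi2 (0.995), Trim56 (0.991) and Pnrc1 (0.990), and Klf7 like Rab11fip1 (0.993), Foxp4 (0.993) and Larp1 (0.993). Egr2 was most like Pde4dip (0.987), 4930506M07Rik (0.985) and Mpi (0.980), and Klf13 like Sh3pxd2b (0.977), Mus81 (0.972) and Nfatc3 (0.970). The nearest rows were less close for Egr1, led by Nme6 (0.960) with Slc35e3 and Rac1, and for Klf2, led by Mtbp (0.948) with Mrpl13 and Atp1b3.

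Among 11 further EGR and KLF family genes, 4 were tested. LPS raised 1 and lowered 3 of them (median -0.71; 1 and 2 with median scaling), beside 16.9% of all rows higher and 57.7% lower (median -0.44). IL-4 raised 1 and lowered 1 (median 0.13), beside 16.0% of all rows higher and 21.0% lower (median -0.05). Klf9, a Sin3A-binding KLF known as a target of nuclear hormone receptors, averaged 2.85 ± 0.83 FPKM in control, 19.4 ± 0.93 with IL-4, 0.940 ± 0.31 with LPS and 11.0 ± 0.89 with both treatments (SD, n = 3). It rose with IL-4 by 2.42 (limma adjusted p = 1.39e-06) and was 2.64 higher in IL-4+LPS than in LPS (limma adjusted p = 8.54e-07), and its interaction of 0.22 did not pass (limma adjusted p = 0.608). Klf8, a CtBP-binding repressor, rose from 1.22 to 3.81 FPKM with LPS and stood at 7.10 FPKM in IL-4+LPS, 0.74 above LPS (limma adjusted p = 0.00263). Klf11 fell with LPS by 1.43 on the log2 scale (limma adjusted p = 3.19e-07), and Klf16 by 0.45 (limma adjusted p = 0.000534), a call lost with median scaling and turned to 0.04 with quantile normalization. Of the related SP genes, which bind GC boxes, 4 of 9 were tested, and LPS raised 0 and lowered 2 of them, Sp3 by -0.96 (limma adjusted p = 0.00498) and Sp1 by -0.29 (limma adjusted p = 0.000922), with a median of -0.16, beside 57.7% of all rows lower. With median scaling 1 rose and 1 fell, and Sp1 turned to 0.05. IL-4 raised 0 and lowered 2, Sp2 by -0.40 (limma adjusted p = 0.0255) and Sp1 by -0.17 (limma adjusted p = 0.0401).

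Of the EGR regulators, 8 of 9 were tested. LPS raised 0 and lowered 6 (median -0.47; 1 and 3 with median scaling), close to the shift of all rows, of which 57.7% were lower (median -0.44). IL-4 raised 1 and lowered 3 (median -0.09), beside 16.0% and 21.0% of all rows. Mkl1, a cofactor of SRF, went from 23.8 ± 1.1 FPKM in control to 4.85 ± 0.61 in LPS (SD, n = 3; difference -2.09, limma adjusted p = 1.14e-08). Mkl2, its relative, rose with IL-4 from 7.05 to 15.6 FPKM (1.05, limma adjusted p = 0.000857). Nab2, a corepressor of EGR proteins, averaged 32.6 FPKM in control, 40.6 with IL-4, 18.7 with LPS and 45.1 with both treatments, and its interaction passed at 0.94 (limma adjusted p = 0.0146). Nab1, the related corepressor, was lower with IL-4 alone by a difference of -0.73 (limma adjusted p = 0.00613) and in IL-4+LPS minus LPS by -1.07 (limma adjusted p = 0.000679), while IL-4+LPS minus IL-4 was -0.02 (limma adjusted p = 0.926).

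The route from the kinase ERK5 to the MEF2 factors, known to switch on Klf2 and Klf4, had 7 genes, all tested. LPS raised 0 and lowered 6 of them (median -0.94; also 0 and 6 with median scaling), beside 57.7% of all rows lower (median -0.44). IL-4 raised 0 and lowered 3 (median -0.41), beside 21.0% of all rows lower (median -0.05). Mef2c went from 11.9 to 1.40 FPKM with LPS (-2.44, limma adjusted p = 1.25e-05), and Mef2d from 29.4 to 8.63 FPKM (-1.66, limma adjusted p = 1.08e-08). Map2k5, which encodes the kinase of ERK5, fell by 1.11 on the log2 scale (limma adjusted p = 9.75e-07), and Mapk7, which encodes ERK5 itself, fell by 0.94 (limma adjusted p = 4.00e-05). In IL-4, Mef2d was lower than in control by a difference of -0.52 (limma adjusted p = 0.000184) and Mapk7 by -0.67 (limma adjusted p = 0.00169). These are RNA levels, and the part of this route in the levels of Klf2 and Klf4 was not tested.

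All 13 genes for cofactors and turnover of KLF proteins were tested, and LPS raised 2 and lowered 9 (median -0.40; 3 and 5 with median scaling), close to the 16.9% higher and 57.7% lower of all rows (median -0.44). IL-4 raised 2 and lowered 3 (median -0.19), beside 16.0% and 21.0% of all rows. Wwp1, a ubiquitin ligase that acts on KLF proteins, averaged 69.8 ± 12.6 FPKM in control, 14.1 ± 3.6 with IL-4, 16.0 ± 3.8 with LPS and 5.06 ± 1.7 with both treatments (SD, n = 3). It fell with IL-4 by 2.24 on the log2 scale (limma adjusted p = 5.11e-05) and with LPS by 2.06 (limma adjusted p = 1.80e-05). Sin3a, the corepressor bound by Klf10 and Klf13, fell with LPS by 0.81 (limma adjusted p = 0.000131). Hdac3, a histone deacetylase, fell with LPS by 0.68 (limma adjusted p = 4.14e-05), and Fbxw7, a ubiquitin ligase subunit, fell by 0.67 (limma adjusted p = 0.000128), a call lost with quantile normalization.

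Of 15 other immediate-early genes, 13 were tested, and LPS raised 4 and lowered 4 (median 0.15; 7 and 4 with median scaling), beside 16.9% and 57.7% of all rows, while IL-4 raised 5 and lowered 1 (median 0.28), beside 16.0% and 21.0%. Fos, the AP-1 subunit, went from 91.7 ± 11.4 FPKM in control to 7.06 ± 3.0 in LPS (SD, n = 3; -3.58, limma adjusted p = 2.50e-05), and Jun, its partner, from 43.8 to 6.29 FPKM (-2.62, limma adjusted p = 7.55e-08). Maff, a small MAF factor, rose with LPS by 3.10 (limma adjusted p = 4.45e-07), and Zfp36, which encodes a protein that destabilizes cytokine messenger RNA, rose by 2.29 (limma adjusted p = 3.90e-05). In the interaction 0 of the 13 were higher and 2 lower, beside 4.58% and 4.63% of all rows. They were Jun, with -1.11 (limma adjusted p = 0.00568), and Myc, a growth regulator named after its values were seen, with -1.33 (limma adjusted p = 0.00585).

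Of 5 alternative polarization genes linked to KLF4 and STAT6, 4 were in the tables and tested, and IL-4 raised all 4 (median 3.03), beside 16.0% of all rows, while LPS raised 0 and lowered 3 (median -0.97; 0 and 2 with median scaling), beside 57.7% of all rows lower. Retnla, which encodes RELM-alpha, averaged 11.4 FPKM in control, 12175 with IL-4, 4.30 with LPS and 10480 with both treatments. Its interaction of 0.92 did not pass (limma adjusted p = 0.301). Arg1, the arginase of alternatively polarized macrophages, averaged 33.5 FPKM in IL-4 and 18.2 in IL-4+LPS, with an interaction of -0.79 (limma adjusted p = 0.217). Pparg, a nuclear receptor induced by IL-4, went from 95.9 FPKM in IL-4 to 9.22 in IL-4+LPS, and its interaction passed at -1.44 (limma adjusted p = 0.0428). Mrc1, the mannose receptor, averaged 181 FPKM in control, 256 with IL-4, 104 with LPS and 141 with both treatments. All of these lists were drawn up with earlier results of these data known, so their counts are descriptions.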

How the data were processed

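The authors prepared poly-A selected RNA libraries, mapped the reads to mm10 with TopHat2 2.0.7 and quantified them with Cufflinks 2.0.2 (submitters' processing notes and the study's methods). The gene annotation is not given in the sources used here. The deposited tables hold FPKM, 1 table per sample, replicates apart, with no scaling between samples described, so absolute depth was unknown and no counting interval was formed. File starts were raised by 1, since 12231 of 21913 matched starts then equalled RefSeq.

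Rows with at least 1 FPKM in at least 1 sample were kept (11191 of 23847). The package limma 3.58.1 (R 4.3.3; eBayes with intensity trend) was run on log2(FPKM + 1) of the 12 samples with 1 mean per group, with Benjamini-Hochberg adjustment within each comparison and a threshold of 0.05. The script was tested on simulated data. The alternatives were other pseudocounts, filters, scalings, spreads, a per-gene Tukey test, a fold minimum, a replicate block and samples left out. Same-numbered samples deviated together in IL-4+LPS minus LPS, where every pair's r exceeded 0.1 (0.119 to 0.386). Replicates 2 and 3 did so across numbers too (r of 0.133 and 0.220), so this was not particular to shared numbers. Genes named from a list were the up to 4 past the threshold with the largest absolute difference in IL-4 minus control, LPS minus control or IL-4+LPS minus LPS. The members and lists were chosen with earlier results of these data known.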

Additional observations from a re-analysis of the deposited data

Results flagged for a closer look

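The LPS response of Klf4 differed between cells with and without IL-4 pretreatment by a direct test of the difference, with an interaction of -2.07 on the log2(FPKM + 1) scale (limma adjusted p = 1.82e-05). In both settings every sample with LPS was below every sample without LPS. Klf4 fell from an average of 12.4 to 1.60 FPKM after IL-4 and from 1.36 to 0.927 FPKM without it. The fall without IL-4 lost its call with median scaling and without control replicate 3, and it changed direction with quantile normalization.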

How the results depend on the processing

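Over the 28 called differences, 635 of 672 refits kept the direction and the call, 36 lost the call and 1 turned. Over the 17 that were not called, 371 of 408 refits kept direction and side, 17 passed and 20 turned. In both counts, refits that left out a sample of a group outside the comparison kept the difference itself, so its direction could not turn. The same held for refits that changed only the filter, spread, test, fold minimum or replicate block. Of the 5 genes lower with LPS, 2 were called under quantile normalization, 3 under median scaling, 3 under the replicate block with median scaling and 2 with a 2-fold minimum. Over all 11191 rows, the lower calls in LPS minus control were 4326, 4454, 5013 and 2121 in the same order, against 6462 as reported. The 2-fold minimum also left 2 higher and 0 lower in IL-4 minus control, 3 lower in IL-4+LPS minus IL-4, and 1 higher and 0 lower in IL-4+LPS minus LPS, by its construction. Over all rows that minimum left 309 higher and 391 lower in IL-4 minus control, and 1691 lower in IL-4+LPS minus IL-4. In IL-4+LPS minus LPS it left 303 higher and 332 lower over all rows. In the interaction, per-gene linear models with p unadjusted across rows called 3 lower, and over all 11191 rows 1436 higher and 1231 lower, against 512 and 518 as reported. With replicates 2 and 3 alone, the interaction called 1 higher and 3 lower, and over 11037 rows 1459 and 1393, and IL-4 minus control called 2 lower, and over all rows 2399 higher and 3242 lower, against 1795 and 2346 as reported. The replicate block took the interaction over all rows to 1145 higher and 1095 lower. The fit with replicates 2 and 3 alone and the block with median scaling were chosen after seeing the data, and the cause of these moves was not tested.

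Of the differences that turned, 1 was called, that of Klf4. Klf2 in LPS minus control turned to 0.20 under quantile normalization, to 0.046 under median scaling and to 0.046 under the block with median scaling, and Klf4 to 0.25 under quantile normalization. Egr1 in IL-4+LPS minus LPS turned to 0.0066 under quantile normalization and to 0.12 with replicates 2 and 3 alone, and ran from -0.11 to 0.070 when single samples were left out. Egr1 ran from -0.017 to 0.10 in IL-4 minus control (-0.0079 with replicates 2 and 3 alone) and from -0.15 to 0.037 in the interaction (0.13 with replicates 2 and 3 alone). Klf2 in IL-4+LPS minus IL-4 ran from -0.051 to 0.20. The Klf6 interaction turned to 0.011 under quantile normalization and to 0.074 with replicates 2 and 3 alone, and ran from -0.080 to 0.060 when single samples were left out. Leaving out IL-4+LPS replicate 1 also brought Klf7 past the threshold in IL-4 minus control (limma adjusted p = 0.0343). The replicate block changed 1 of 45 calls, that of Klf7 in IL-4+LPS minus LPS (limma adjusted p = 0.0473), and no other. Outside that comparison, the lowest r of a same-numbered pair was 0.013 to 0.076, and 9 of 12 samples correlated best with their own number.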
